A study of Homo sapiens with 21 samples.

Results

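Genes of the DNA replication machinery were followed through 7 culture conditions of AU565, a human breast carcinoma line that carries extra copies of ERBB2. The set was defined by a written list of 48 gene symbols for origin licensing, the replication fork and nucleotide supply. All 48 were found among the 16553 genes of the deposited count table. All 48 also passed the filter on low counts that left 15969 genes for testing, and the lowest count of any of them in any library was 22. Total RNA was sequenced from 21 libraries, labelled wild type, in 7 groups of 3. Primed and treated aggregates came from monolayer cells given trastuzumab at 20 µg/ml for 24 h. The antibody binds HER2, the receptor encoded by ERBB2. The cells were then grown for 96 h as 3D aggregates under liquid overlay (5% matrigel) and after that received 50 µg/ml for 24 h. Treated aggregates received the late dose alone, primed aggregates the early dose alone, and untreated aggregates neither. Aggregates without the late dose were taken at 96 h, so those with it were 24 h older. Primed monolayers received the early dose and 96 h more of culture, acutely exposed monolayers the early dose alone, and untreated monolayers no antibody. No culture time is given for the untreated monolayers, and no removal of the antibody is described. All libraries come from 1 cell line, and the labels do not say that replicates were separate cultures. The p-values therefore measure the spread between these samples, which may be technical.

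Replication starts at origins bound by the origin recognition complex (the ORC genes). CDC6 and CDT1 load the MCM2 to MCM7 helicase there during G1, and geminin (GMNN) blocks reloading. CDC45, the GINS complex and MCM10 turn the loaded helicase into an active fork, where primase and the polymerases alpha, delta and epsilon copy the strands around the PCNA clamp, itself loaded by the RFC complex. Many of these genes are transcribed at the G1/S boundary by E2F factors, which the retinoblastoma protein holds back in cells that do not divide. HER2 signalling drives division in ERBB2-amplified lines, and cells in aggregates usually divide less than in monolayers.

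Promoter sequence was set beside the values because many of these genes are known E2F targets. RefSeq promoters of GRCh38.p14, which run from 250 bases before to 50 after a start site, were found for 42 of the 48 genes. Each was searched on both strands for the E2F motifs TTTGGCGC, TTTCCCGC, TTTCGCGC and TTTGCCGC, for the CCAAT box and for the cell cycle homology region TTTGAA. A gene counted as matched if any of its promoters matched, and 10 of the 42 had more than 1 promoter. An E2F match stood in 21 of 42 (50%), against 6.2% of 12556 genes of the count table with a promoter. Of all 27305 genes with a promoter of that length, 3.99% had a match. CCAAT stood in 26 (61.9%), against 42.7% and 39.7%, and TTTGAA in 3 (7.14%), against 14.2% and 18.2%. Both an E2F match and CCAAT stood in 12. Shown here are 4 subunits of the helicase, which all rose in primed monolayers, and ORC5, which moved against most of the set and holds none of the E2F letters or CCAAT. ORC5 was picked after its values were seen. The windows are chr3:127598161-127598460 on the plus strand for MCM2, and on the minus strand chr6:52284693-52284992 for MCM3, chr2:135876394-135876693 for MCM6, chr7:100101348-100101647 for the first listed start of MCM7 and chr7:104207964-104208263 for ORC5. Letters run 5′ to 3′, and capitals mark E2F and CCAAT matches on either strand, some of them overlapping.
MCM2: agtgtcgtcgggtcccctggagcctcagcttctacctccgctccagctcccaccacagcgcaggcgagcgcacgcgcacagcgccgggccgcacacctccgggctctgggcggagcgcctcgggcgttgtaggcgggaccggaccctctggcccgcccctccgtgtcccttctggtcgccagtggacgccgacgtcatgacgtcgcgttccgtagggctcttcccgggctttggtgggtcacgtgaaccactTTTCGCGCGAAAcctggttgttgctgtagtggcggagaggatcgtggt
MCM3: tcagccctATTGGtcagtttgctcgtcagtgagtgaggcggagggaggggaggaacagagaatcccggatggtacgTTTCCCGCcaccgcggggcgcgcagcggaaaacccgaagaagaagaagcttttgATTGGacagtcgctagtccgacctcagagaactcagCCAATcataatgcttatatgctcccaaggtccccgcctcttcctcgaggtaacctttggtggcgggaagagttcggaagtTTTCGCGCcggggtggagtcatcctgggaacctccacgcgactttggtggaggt
MCM6: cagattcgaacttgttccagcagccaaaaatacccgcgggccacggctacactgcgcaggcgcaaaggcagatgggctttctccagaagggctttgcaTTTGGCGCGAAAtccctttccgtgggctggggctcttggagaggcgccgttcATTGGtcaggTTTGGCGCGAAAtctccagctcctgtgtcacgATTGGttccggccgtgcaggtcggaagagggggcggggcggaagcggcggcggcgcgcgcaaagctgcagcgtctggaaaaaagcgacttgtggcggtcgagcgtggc
MCM7: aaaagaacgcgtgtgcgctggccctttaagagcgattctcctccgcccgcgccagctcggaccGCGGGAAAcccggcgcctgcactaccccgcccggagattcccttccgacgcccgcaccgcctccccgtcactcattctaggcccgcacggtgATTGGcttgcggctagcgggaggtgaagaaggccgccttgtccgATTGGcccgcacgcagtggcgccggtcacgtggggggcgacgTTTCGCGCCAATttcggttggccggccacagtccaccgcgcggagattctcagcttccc
ORC5: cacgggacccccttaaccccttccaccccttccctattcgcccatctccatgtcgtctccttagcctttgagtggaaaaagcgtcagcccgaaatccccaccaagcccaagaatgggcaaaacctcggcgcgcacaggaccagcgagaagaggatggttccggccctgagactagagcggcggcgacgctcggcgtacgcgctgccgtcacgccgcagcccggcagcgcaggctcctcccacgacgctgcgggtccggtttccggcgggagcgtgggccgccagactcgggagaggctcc
E2F matches on opposite strands overlap in MCM2 and in MCM6. MCM7 has 3 promoters, and those not shown hold CCAAT but no E2F match. A match describes these letters only and says nothing of a factor's binding.

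Libraries held 15005070 to 26921113 counts. The luminal markers EPCAM, KRT8, KRT18, KRT19, ERBB2 and FOXA1 were present throughout, with at least 120 CPM of EPCAM, but E-cadherin (CDH1) stayed between 0.045 and 3.05 CPM and GATA3 between 2.41 and 11.8 CPM. Transcripts of other tissues split the libraries in 2 sets. Summed kidney markers, led by UMOD, were at 9.15 to 43.9 CPM in the 9 libraries of primed and treated aggregates, treated aggregates and primed monolayers, against 1.6 to 2.71 CPM in the other 12, where UMOD was at most 0.0588 CPM. In those 9, 8 of 10 kidney, 4 of 9 brain and 1 of 9 mesenchymal markers (DCN) were over 5-fold higher. The other 12 carried 7 of 8 melanocyte, 5 of 11 striated muscle and 2 of 9 mesenchymal markers over 5-fold higher. The same held for 1 of 8 luminal markers (CDH1). TYRP1 stood at 5.7 to 33.1 CPM in the 12, against at most 0.256 CPM in the 9. The cardiac myosin MYH7 passed 1 CPM in 6 libraries, namely replicates 1 and 2 of the untreated aggregates, 2 and 3 of the acutely exposed monolayers and 1 and 2 of the untreated monolayers. Where a comparison crosses the 2 sets, the treatment and the set cannot be told apart, and the part of these transcripts in the results was not tested. Both groups lie in 1 set for 4 comparisons, which are untreated aggregates against untreated monolayers, acutely exposed against untreated monolayers, primed against untreated aggregates, and primed and treated against treated aggregates.

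Primed monolayers had the most replication transcripts, and aggregates the fewest. The 48 genes took 0.157 ± 0.00234% of counts in primed and treated aggregates, 0.167 ± 0.00348% in treated, 0.159 ± 0.00443% in primed and 0.175 ± 0.00375% in untreated aggregates (SD, n = 3 each). Their share was 0.391 ± 0.000274% in primed monolayers, 0.211 ± 0.0041% in acutely exposed and 0.236 ± 0.00677% in untreated monolayers. By group mean, 42 of 48 genes were highest in primed monolayers, 4 in untreated monolayers and 1 each in primed aggregates and in primed and treated aggregates. An aggregate group was lowest for 41, most often primed and treated (16) or primed aggregates (13). For 40 of 48 genes all 3 primed monolayer libraries lay above the 18 others, as they did for 15.3% of all genes tested. For 29 of 48 all 12 aggregate libraries lay below all 9 monolayer libraries, as for 9.3% of all genes tested. In bulk RNA, fewer dividing cells and less of these transcripts per cell cannot be told apart.

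**Figure D1:**
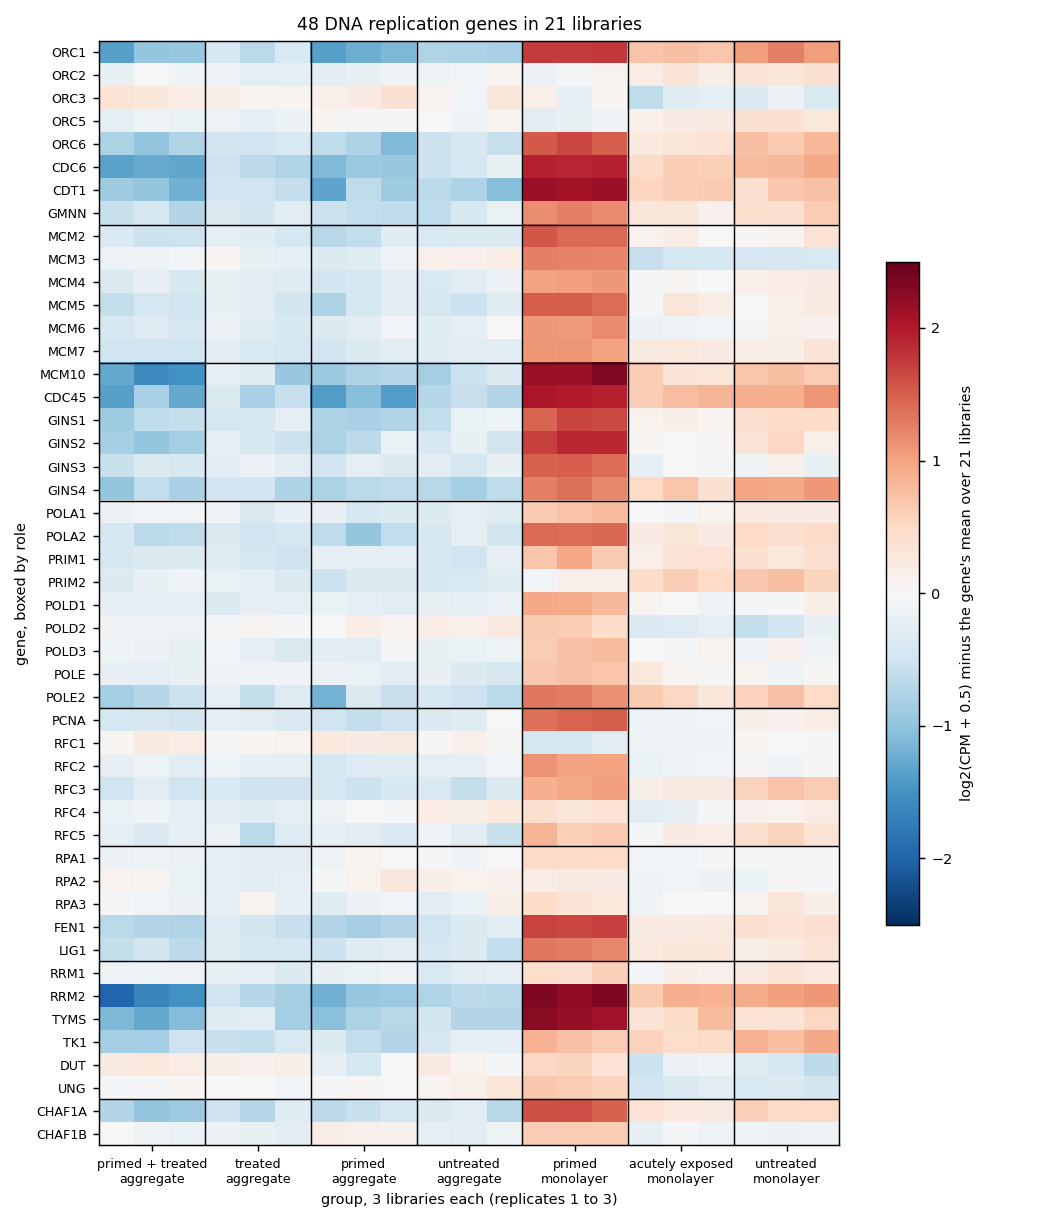
Each cell is 1 gene (rows, boxed by role from origin recognition at the top to histone loading at the bottom) in 1 library (columns, 3 per group), coloured by log2(CPM + 0.5) minus the gene's mean over 21 libraries. The 3 primed monolayer columns are the reddest for most genes, and 42 of 48 genes have their highest group mean there.

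The spread between groups differed widely among the genes. The ratio of the highest to the lowest group mean ran between 1.39 and 16.5 with a median of 2.91, at 4 or more for 17 genes and under 2 for 13. RRM2, the small subunit of ribonucleotide reductase, had the widest ratio (16.5), followed by MCM10 (15.9), the thymidylate synthase TYMS (11.4), CDC45 (11), ORC1 (10.2), CDT1 (9.79) and CDC6 (9.36). The 13 under 2 came from several roles. RPA2, of the single strand binding complex, had the narrowest ratio (1.39), followed by the origin recognition subunits ORC5 (1.44) and ORC2 (1.45), by RPA3 (1.47), the clamp loader subunits RFC1 (1.54) and RFC4 (1.54), and ORC3 (1.58). Levels of different genes are comparable only per length of exon. On that scale POLD2, a small subunit of polymerase delta, had 172 CPM per kb in primed monolayers, and GINS4 2.53, the 2 ends of the set there.

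Primed monolayers were set against untreated ones to see what the exposure left after 96 h. Replication genes were higher nearly throughout, with 41 of 48 higher and 4 lower (33.7% and 31.6% of all genes tested). Their median log2 fold change was 0.86, against 0.01 for all genes tested. The 2 groups lie in different library sets and differ in culture time, so the exposure cannot be told apart from these. Mitochondrial rRNA took 0.793 to 0.812% of counts in primed and 0.925 to 1.14% in untreated monolayers, and its part was not tested. All 6 helicase subunits rose, as did all 6 activation factors and 8 of 9 polymerase and primase genes. Both subunits of the histone chaperone CAF-1 rose too.

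MCM3 (Entrez 4172, chromosome 6, 52264015 to 52284742, GRCh38) is a subunit of the helicase. It had 96.4, 94.8 and 93.6 CPM in primed monolayers, against 29.5, 29.6 and 30.4 CPM in untreated monolayers. The groups stood far apart (log2 fold change 1.67, SE 0.07, edgeR adjusted p = 1.34e-20). TYMS, which makes thymidylate, had 42.3, 40.4 and 38.2 CPM in primed monolayers, against 11.1, 10.9 and 12.4 CPM in untreated monolayers. It had the highest fold change of the 48 genes here (3.51-fold, log2 1.81, SE 0.12, edgeR adjusted p = 4.73e-15). The GINS subunit GINS2 was rarer, at 9.72, 11 and 11.1 CPM in primed and 3.43, 3.98 and 2.91 CPM in untreated monolayers (log2 1.62, SE 0.17, edgeR adjusted p = 3.84e-10). CDC6 (Entrez 990, chromosome 17, 40287879 to 40304657), the helicase loader, had 493, 486 and 496 CPM in primed monolayers, against 226, 227 and 250 CPM in untreated monolayers. No libraries overlapped for it (log2 1.07, SE 0.07, edgeR adjusted p = 3.64e-15). PCNA (Entrez 5111, chromosome 20, 5114953 to 5126622), the sliding clamp, had 138, 146 and 151 CPM in primed monolayers, against 58.4, 56.9 and 60.1 CPM in untreated monolayers. RRM2 (Entrez 6241, chromosome 2, 10122568 to 10211010) had 205, 189 and 206 CPM in primed monolayers, against 76.9, 82.4 and 85.9 CPM in untreated monolayers. Both rose by a similar factor, PCNA 2.49-fold (edgeR adjusted p = 1.92e-18) and RRM2 2.44-fold (edgeR adjusted p = 2.08e-13).

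**Figure D2:**
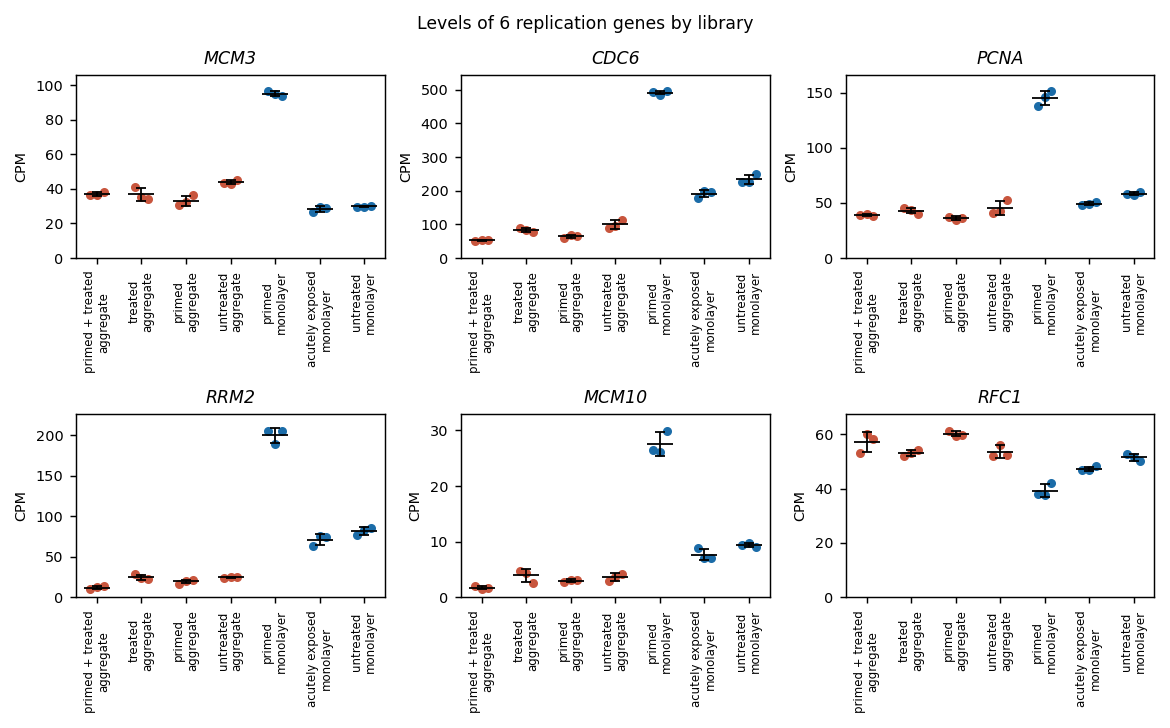
Each panel gives 1 gene in CPM, with a point per library, the group mean as a bar and its SD (n = 3) as whiskers; aggregates are red and monolayers blue. MCM3, CDC6, PCNA, RRM2 and MCM10 peak in primed monolayers, while RFC1 is lowest there (38, 37.7 and 41.9 CPM).

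Against this rise, 4 genes fell in primed monolayers. PRIM2, the large primase subunit, had 13.4, 15.2 and 15.2 CPM in primed and 22.7, 23.9 and 20.7 CPM in untreated monolayers (log2 −0.62, SE 0.09, edgeR adjusted p = 6.93e-07). Its partner PRIM1, the catalytic subunit, went the other way, at 15.1, 18.3 and 14.7 CPM in primed and 12.1, 11.1 and 12.5 CPM in untreated monolayers (log2 0.43). ORC5, an origin recognition subunit, had 35.2, 36.9 and 39.8 CPM in primed and 55.1, 55.3 and 50.7 CPM in untreated monolayers (log2 −0.52, SE 0.07, edgeR adjusted p = 1.83e-08). RFC1, the large subunit of the clamp loader, fell by 0.39 on the log2 scale (SE 0.06, edgeR adjusted p = 9.94e-07), and ORC2, another origin recognition subunit, by 0.36 (SE 0.07, edgeR adjusted p = 5.9e-05). Among the loader's other subunits RFC2 (1.07), RFC3 (0.33) and RFC4 (0.23) rose, and RFC5 did not pass (log2 0.26, edgeR adjusted p = 0.055). TK1, the thymidine kinase, had 178, 162 and 151 CPM in primed and 177, 164 and 187 CPM in untreated monolayers and did not pass either, nor did RPA3 (log2 0.19).

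By promoter, all 21 genes with an E2F match rose in primed monolayers, with a median log2 fold change of 1.04. Of the 21 without a match 15 rose and 4 fell, with a median of 0.65, and of the 6 without a RefSeq promoter 5 rose. Over all genes tested with a promoter, 35.3% of 760 with an E2F match rose in this comparison and 30.5% fell, against 34.1% and 33.2% of 11430 without one. In other comparisons the members split otherwise. Between untreated aggregates and untreated monolayers 17 of 21 with a match fell, with a median log2 fold change of −0.53, and 16 of 21 without one, with a lower median of −0.76. In acutely exposed against untreated monolayers 6 of 21 fell in either set, with medians of −0.09 with a match and −0.17 without. In primed aggregates against primed monolayers 20 of 21 with a match fell (median −1.84) and 18 of 21 without (median −1.05). Over all genes tested with a promoter, the shares with and without a match that fell were 40.5% and 32% between untreated aggregates and untreated monolayers. Median log2 fold changes there were −0.12 and 0.01. The shares were 14.7% and 9.22% with the acute dose, and 42.2% and 34.5% between primed cultures. These splits were made with the values known and are descriptions. Of 40 other replication genes (regulators, histone and nucleotide factors outside the 48) 25 rose and 5 fell, where 33.7% of all genes tested rose and 31.6% fell. UHRF1, which brings the maintenance methyltransferase to replicated DNA, averaged 28.2 ± 1.53 CPM in primed and 5.57 ± 0.723 CPM in untreated monolayers (log2 2.35, SE 0.15, edgeR adjusted p = 1.22e-15). The histone chaperone subunit SSRP1 rose by a log2 fold change of 1.28. Of 30 regulators of E2F and the retinoblastoma protein 22 rose and 4 fell. The cyclin CCND3 averaged 108 ± 5.15 CPM in primed and 41.7 ± 3.45 CPM in untreated monolayers (log2 1.38, SE 0.07, edgeR adjusted p = 1.37e-18), and MYC rose by a log2 fold change of 1.34. The proliferation marker MKI67 averaged 301 ± 26.8 CPM in primed and 193 ± 5.28 CPM in untreated monolayers (log2 0.65, SE 0.09, edgeR adjusted p = 2.2e-06), a smaller log2 fold change than that of 32 of the 48 genes.

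Without antibody, 3D culture was judged from untreated aggregates against untreated monolayers. The aggregates had 96 h of culture and 5% matrigel, and no culture time is given for the monolayers. The 3D form cannot be told apart from culture time and matrigel. Replication genes were mostly lower, with 37 of 48 lower and 5 higher (31.1% and 32.9% of all genes tested), a median log2 fold change of −0.54. Every activation factor fell, as did 7 of 8 origin and loading genes, 5 of 6 helicase subunits and 7 of 9 polymerase and primase genes. Mitochondrial rRNA took 2.5 to 2.75% of counts in untreated aggregates and 0.925 to 1.14% in untreated monolayers, and its part in the result was not tested.

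ORC1, the largest origin recognition subunit, had 2.23, 2.2 and 2.14 CPM in untreated aggregates, against 9.04, 10.5 and 9.01 CPM in untreated monolayers. Its log2 fold change of −2.12 was the lowest of the set (SE 0.15, edgeR adjusted p = 2.61e-14). GINS4, a GINS subunit, had 3.11, 2.76 and 3.27 CPM in untreated aggregates, against 11.2, 10.9 and 12 CPM in untreated monolayers (log2 −1.9, SE 0.14, edgeR adjusted p = 9.36e-14). RRM2 had 23.6, 25.5 and 24.6 CPM in untreated aggregates, against 76.9, 82.4 and 85.9 CPM in untreated monolayers. It fell by 1.74 on the log2 scale (SE 0.09, edgeR adjusted p = 4.56e-15), while its partner subunit RRM1 fell by 0.55. CDC6 had 89.4, 95.5 and 115 CPM in untreated aggregates, against 226, 227 and 250 CPM in untreated monolayers (log2 −1.23, SE 0.07, edgeR adjusted p = 2.31e-16). PCNA changed less, with 40.8, 42.7 and 52.3 CPM in untreated aggregates and 58.4, 56.9 and 60.1 CPM in untreated monolayers (log2 −0.37, SE 0.07, edgeR adjusted p = 1.57e-05). Without the libraries that carry MYH7 PCNA no longer passed (log2 −0.2, edgeR adjusted p = 0.135).

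A few genes were higher in untreated aggregates. MCM3 had 43.4, 43 and 45.1 CPM in untreated aggregates, against 29.5, 29.6 and 30.4 CPM in untreated monolayers. It was the 1 helicase subunit to rise (log2 0.55, SE 0.07, edgeR adjusted p = 2.23e-08), while the other 5 fell by 0.25 (MCM6) to 0.55 (MCM5). UNG, which cuts uracil out of DNA, had 51.9, 54 and 61.1 CPM in untreated aggregates, against 38, 38.7 and 35.6 CPM in untreated monolayers (log2 0.57, SE 0.07, edgeR adjusted p = 2.17e-09). DUT, which keeps uracil out by breaking down dUTP, had 73.4, 66.8 and 61.6 CPM in untreated aggregates, against 51, 46.6 and 39.6 CPM in untreated monolayers (log2 0.56, SE 0.12, edgeR adjusted p = 0.000372). Both uracil genes thus stood above every monolayer library of that comparison. POLD2 had 297, 287 and 314 CPM in untreated aggregates, against 174, 190 and 232 CPM in untreated monolayers (log2 0.59, SE 0.07, edgeR adjusted p = 3.09e-08). ORC3, an origin recognition subunit, also rose (log2 0.4).

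Among the other replication genes, 22 of 40 fell and 9 rose (31.1% and 32.9% of all genes tested). The cohesion factor DSCC1 averaged 27.1 ± 4.2 CPM in untreated aggregates and 98 ± 2.81 CPM in untreated monolayers (log2 −1.86, SE 0.08, edgeR adjusted p = 3.65e-20), and SSRP1 rose (log2 1.05). Among the 30 E2F and RB regulators 16 fell and 9 rose. Cyclin A (CCNA2) averaged 12.4 ± 1.97 CPM in untreated aggregates and 41.8 ± 0.518 CPM in untreated monolayers (log2 −1.76, SE 0.09, edgeR adjusted p = 3.79e-18), and MYC rose by a log2 fold change of 1.45. MKI67 had 29, 35.5 and 32.7 CPM in untreated aggregates, against 194, 187 and 197 CPM in untreated monolayers, a lower log2 fold change (−2.57, SE 0.10) than that of any of the 48 genes.

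**Figure D3:**
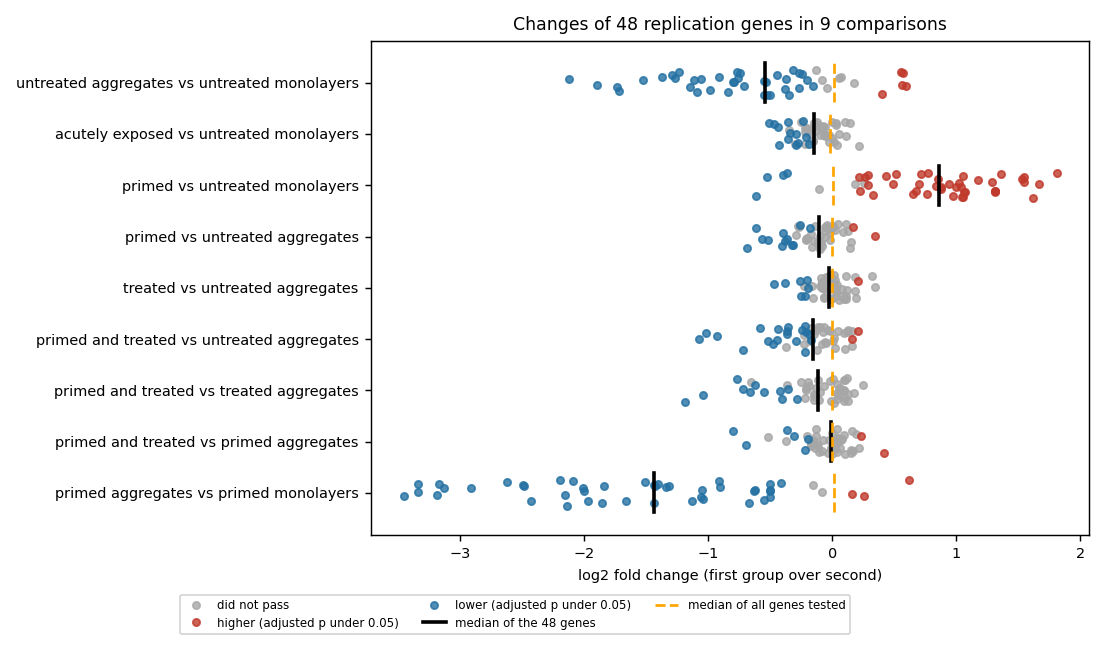
Each point is 1 of the 48 genes, placed by its log2 fold change (first named group over the second) in 9 comparisons, with calls at an edgeR adjusted p under 0.05 in colour. Black bars give the median of the 48 genes, 0.86 in primed over untreated monolayers and −1.43 in primed aggregates over primed monolayers; orange dashes give the median of all genes tested.

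The acute dose in monolayers was compared with no antibody to see the first response. No culture time is given for the untreated monolayers, so a difference in it cannot be told apart from the dose. Changes were small, and those that passed were all decreases, with 13 of 48 lower and 0 higher (8.91% and 11.3% of all genes tested), a median log2 fold change of −0.15. Origin and loading factors (4 of 8) and the clamp with its loader (4 of 6) held most of the 13, and no helicase subunit, single strand binding or flap joining gene passed. ORC6, the smallest origin recognition subunit, had 14.3, 15.1 and 15.3 CPM in acutely exposed and 20.7, 19.4 and 22 CPM in untreated monolayers. The groups did not overlap (log2 −0.47, SE 0.10, edgeR adjusted p = 0.000444). RFC3, a clamp loader subunit, had 32.7, 34.3 and 34.4 CPM in acutely exposed and 43.2, 48.6 and 45.6 CPM in untreated monolayers (log2 −0.44, SE 0.07, edgeR adjusted p = 3.38e-05). GINS4 had 7.8, 8.95 and 7.16 CPM in acutely exposed and 11.2, 10.9 and 12 CPM in untreated monolayers (log2 −0.51, SE 0.12, edgeR adjusted p = 0.00268). CDC6 fell by 0.30 on the log2 scale (SE 0.07, edgeR adjusted p = 0.00131), with 179, 198 and 196 CPM in acutely exposed and 226, 227 and 250 CPM in untreated monolayers. PCNA fell by 0.24 (edgeR adjusted p = 0.00929). RRM2 (log2 −0.2, edgeR adjusted p = 0.0963) and MCM3 (log2 −0.07, edgeR adjusted p = 0.547) did not pass.

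Fewer acute decreases passed without the libraries that carry MYH7, which also leaves fewer libraries. Without the 4 of them among these 6, which leaves 1 library a group that is assumed to vary like the others, 4 genes were lower in place of 13. GINS4 (log2 −0.62, edgeR adjusted p = 0.132) and PCNA (log2 −0.31, edgeR adjusted p = 0.103) no longer passed, while their fold changes with all libraries were −0.51 and −0.24. With library totals as the only scaling, 42% of all calls were increases, against 55.8% with TMM. Among the 40 other replication genes 16 fell and 2 rose (8.91% and 11.3% of all genes tested). DSCC1 (log2 −0.45) and the fork protection factor TIMELESS (log2 −0.31) were among those that fell. Of the 30 E2F and RB regulators 9 fell and 5 rose, including the cyclin CCND1 (369 ± 8.87 CPM in acutely exposed and 273 ± 4.42 CPM in untreated monolayers, log2 0.43, SE 0.05, edgeR adjusted p = 4.84e-09) and the pocket protein RBL2 (log2 0.25). MKI67 had 160.2 to 167 CPM in acutely exposed and 187 to 197 CPM in untreated monolayers and did not pass (log2 −0.23, edgeR adjusted p = 0.086).

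Priming could be followed in 2 pairs of aggregate groups, without and with the late dose, that share no library and lie each in 1 library set. Other measures still differed within the pairs. Mitochondrial rRNA took 2.13 to 2.36% of counts in primed and treated and 1.52 to 1.71% in treated aggregates. Summed melanocyte markers stood at 56.6 to 97.5 CPM in primed and 17.1 to 24 CPM in untreated aggregates, and summed striated muscle markers at 154 to 158 CPM in primed and 211 to 246 CPM in untreated aggregates. Their part in the results was not tested. In both pairs, the replication genes that passed were mainly lower. Without the late dose 12 of 48 genes were lower and 2 higher in primed aggregates than in untreated ones (9.66% and 11.5% of all genes tested), with a median log2 fold change of −0.11. With it, 11 were lower and 0 higher in primed and treated aggregates than in treated ones (4.8% and 3.18% of all genes tested), with a median of −0.11. The 7 genes lower in both are ORC1, ORC6, CDC6, CDC45, GINS1, FEN1 and RRM2, or 58.3% of the 12 and 63.6% of the 11. Of all genes tested 0.996% were lower in both. They cover origin binding, helicase loading and activation, flap cutting (FEN1) and deoxynucleotide supply. Fold changes were negative in both pairs for 26 genes, positive in both for 8 and opposite for 14. Across the 48 genes, which are not independent replicates, Pearson's r between the pairs was 0.57 and Spearman's rho 0.63.

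**Figure D4:**
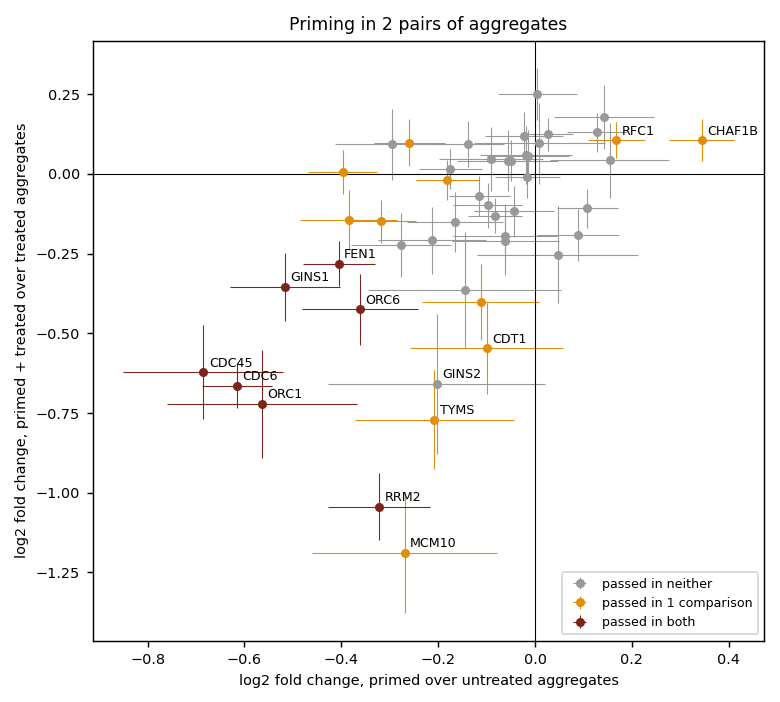
Each point is 1 of the 48 genes, with its log2 fold change in primed over untreated aggregates on the x axis and in primed and treated over treated aggregates on the y axis; bars are standard errors. The 7 dark red genes passed in both pairs and all lie at the lower left, while RRM2 and MCM10 lie lowest on the y axis (−1.04 and −1.19).

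CDC6 was the clearest case. It had 51.1, 53.7 and 52.7 CPM in primed and treated aggregates, against 90, 82.4 and 77.3 CPM in treated aggregates (log2 −0.66, SE 0.07, edgeR adjusted p = 2.68e-07). Without the late dose it had 60.1, 68.2 and 66.8 CPM in primed aggregates, against 89.4, 95.5 and 115 CPM in untreated aggregates (log2 −0.62, SE 0.07, edgeR adjusted p = 1.97e-07). The decrease was of nearly the same size in both pairs. CDC45, which joins the helicase at the fork, had 3.05, 4.71 and 3.24 CPM in primed and treated and 6.58, 4.67 and 5.63 CPM in treated aggregates (log2 −0.62), with 1 library overlapping. It had 2.96, 3.86 and 2.96 CPM in primed and 5.05, 5.62 and 4.99 CPM in untreated aggregates, with no overlap (log2 −0.68, SE 0.17, edgeR adjusted p = 0.00261). ORC1 stood at 1.3, 1.85 and 1.88 CPM in primed and treated and 2.92, 2.38 and 3.03 CPM in treated aggregates (log2 −0.72). Its fall without the late dose, to 1.47 ± 0.161 CPM in primed against 2.19 ± 0.0465 CPM in untreated aggregates, was less firm (log2 −0.56, SE 0.20, edgeR adjusted p = 0.0376), since it failed with DESeq2 (adjusted p = 0.0594) and without any of 5 single libraries (replicates 1 or 2 of the primed or any of the untreated; edgeR adjusted p up to 0.115).

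RRM2 and MCM10 differed more in the pair with the late dose than in the pair without it. The 2 pairs lie in different library sets and differ by 24 h of culture, so the late dose cannot be told apart from these. RRM2 had 9.78, 12.7 and 13.7 CPM in primed and treated aggregates, against 28.5, 24.2 and 22.4 CPM in treated aggregates (log2 −1.04, SE 0.11, edgeR adjusted p = 3.14e-07). In primed aggregates it had 17.1, 20.6 and 21.1 CPM, against 23.6, 25.5 and 24.6 CPM in untreated aggregates (log2 −0.32, SE 0.11, edgeR adjusted p = 0.0295), a call that ended without primed replicate 1 or untreated replicate 2 or 3 (edgeR adjusted p up to 0.126). The difference between these responses passed (log2 −0.72, SE 0.15, edgeR adjusted p = 0.00154). MCM10, which steadies the active helicase, had 2.02, 1.55 and 1.62 CPM in primed and treated and 4.77, 4.4 and 2.65 CPM in treated aggregates (log2 −1.19, SE 0.19, edgeR adjusted p = 5.82e-05). Without the late dose it overlapped, at 2.72, 3.09 and 3.2 CPM in primed and 2.94, 3.68 and 4.28 CPM in untreated aggregates. Its difference between responses was −0.92 (SE 0.27, edgeR adjusted p = 0.0207), which 5 single libraries could end (primed replicate 3, untreated replicate 1, treated replicate 1 or 2, primed and treated replicate 2; edgeR adjusted p up to 0.0857). TYMS fell in the pair with the late dose (3.63, 3.23 and 3.75 CPM in primed and treated, 6.79, 6.87 and 4.53 CPM in treated aggregates; log2 −0.77, SE 0.15, edgeR adjusted p = 0.00103), and did not pass without it (log2 −0.21, edgeR adjusted p = 0.412). Its difference between responses did not pass either (log2 −0.56, edgeR adjusted p = 0.101).

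The difference had the opposite sign for MCM3. It was at 36.2, 36.5 and 38.2 CPM in primed and treated and 41.2, 35.2 and 34.2 CPM in treated aggregates, which overlap (log2 0.01, edgeR adjusted p = 0.978). Without the late dose it had 30.9, 32.2 and 36.5 CPM in primed and 43.4, 43 and 45.1 CPM in untreated aggregates (log2 −0.4, SE 0.07, edgeR adjusted p = 9.25e-05). The difference between these passed (log2 0.40, SE 0.10, edgeR adjusted p = 0.00505), as did that of RFC4 (log2 0.36, SE 0.10, edgeR adjusted p = 0.019), which ended without treated replicate 2 or primed and treated replicate 2 (edgeR adjusted p up to 0.0534). In all, 2 of 48 differences were higher and 2 lower (5.05% and 7.42% of all genes tested). Of the 40 other replication genes 4 were higher and 3 lower, including SLBP (log2 0.48) and TOP2A (log2 −0.84), and of the 30 regulators 2 were higher and 6 lower, including MYC (log2 0.36) and RBL2 (log2 −0.33). The difference of MKI67 was −1.09 (SE 0.15, edgeR adjusted p = 4.26e-05). PCNA fell in primed aggregates (log2 −0.32, edgeR adjusted p = 0.00131) and did not pass in the pair with the late dose (log2 −0.15, edgeR adjusted p = 0.202). CHAF1B, a CAF-1 subunit, and RFC1 were the 2 higher in primed than in untreated aggregates. CHAF1B had 39.7, 38.7 and 38.3 CPM in primed and 30.5, 28.9 and 32.6 CPM in untreated aggregates (log2 0.34, SE 0.07, edgeR adjusted p = 0.000258). RFC1 rose by 0.17 (edgeR adjusted p = 0.0395) and failed without any of 5 single libraries (any of the primed, untreated replicate 1 or 3; edgeR adjusted p up to 0.136).

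Without the 2 untreated aggregate libraries that carry MYH7, which leaves 1, CHAF1B, RFC1, CDC45, ORC1 and RRM2 no longer passed between primed and untreated aggregates (edgeR adjusted p 0.0843 to 0.275). Their log2 fold changes were then 0.25 for CHAF1B, 0.20 for RFC1, −0.62 for CDC45, −0.53 for ORC1 and −0.32 for RRM2, against 0.34, 0.17, −0.68, −0.56 and −0.32 with all libraries. The difference of MCM10 was −0.68, against −0.92 with all libraries, and did not pass either (edgeR adjusted p = 0.192). Counts of lower genes moved with single libraries. Without replicate 2 of the untreated aggregates 7 genes were lower in primed aggregates in place of 12, and without replicate 1 of the treated aggregates 7 were lower in primed and treated aggregates in place of 11. With priming after the late dose 8 of the 40 other replication genes fell and 0 rose, among them the initiation factor TICRR (2.29 ± 0.382 CPM in primed and treated and 4.28 ± 0.744 CPM in treated aggregates, log2 −0.89, SE 0.15, edgeR adjusted p = 0.000165) and the helicase RECQL4 (log2 −0.62). Without the late dose 13 fell and 1 rose, with DSCC1 (log2 −0.57) and the nucleoside diphosphate kinase NME1 (log2 −0.51) at the smallest p. Of the 30 E2F and RB regulators 9 fell and 2 rose after the late dose, where 4.8% of all genes tested fell and 3.18% rose. E2F1, a transcription factor that drives many of these genes, had 5.43, 5.34 and 6.37 CPM in primed and treated aggregates, against 10.4, 10.4 and 11.9 CPM in treated aggregates (log2 −0.92, SE 0.11, edgeR adjusted p = 3.96e-07). E2F3 fell by 0.54. Without the late dose 6 of the 30 fell and 5 rose, with RBL2 (log2 0.50) and CCND3 (log2 0.48) among those that rose. Of all genes tested 9.66% fell and 11.5% rose there. MKI67 was lower in primed and treated than in treated aggregates (28.9, 31.4 and 32.2 CPM, against 59.8, 56.1 and 46.8 CPM; log2 −0.81, SE 0.10, edgeR adjusted p = 2.48e-05). Between primed and untreated aggregates it overlapped and did not pass (log2 0.27, edgeR adjusted p = 0.0821).

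The late dose alone was read from treated against untreated aggregates, which also differ by 24 h of culture and in library set. Few replication genes changed, with 7 of 48 lower and 1 higher (17.9% and 18.8% of all genes tested) and a median log2 fold change of −0.03. Mitochondrial rRNA took 1.52 to 1.71% of counts in treated and 2.5 to 2.75% in untreated aggregates, and its part was not tested. RFC4, a clamp loader subunit, had 22.6, 21.6 and 23.1 CPM in treated aggregates, against 30.7, 30 and 32.5 CPM in untreated aggregates (log2 −0.47, SE 0.07, edgeR adjusted p = 5.32e-06). RPA2, part of the single strand binding complex, had 19.8, 19.2 and 19.7 CPM in treated and 26.1, 25.1 and 25.3 CPM in untreated aggregates (log2 −0.38, SE 0.08, edgeR adjusted p = 0.000397). Its partner RPA1 also fell (log2 −0.22). MCM3 had 41.2, 35.2 and 34.2 CPM in treated and 43.4, 43 and 45.1 CPM in untreated aggregates (log2 −0.25, SE 0.07, edgeR adjusted p = 0.00459). CDC6 fell by 0.26 (edgeR adjusted p = 0.00352), with libraries that overlap and a call that ended without untreated replicate 3 (edgeR adjusted p = 0.0568). POLE, the catalytic subunit of polymerase epsilon, was the 1 gene higher (84.4, 83.2 and 85.1 CPM in treated, 79, 70.8 and 68.7 CPM in untreated aggregates; log2 0.21, edgeR adjusted p = 0.00783), and it failed without untreated replicate 2 or 3 (edgeR adjusted p up to 0.0598). RRM2 (log2 0.03) and PCNA (log2 −0.07) did not pass. Without untreated replicate 3 the count of lower genes was 4 in place of 7.

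Some genes outside the set moved more in that comparison. TOP2A, a topoisomerase of the list of other replication genes, averaged 234 ± 15.7 CPM in treated and 124 ± 16.7 CPM in untreated aggregates (log2 0.92, SE 0.10, edgeR adjusted p = 8.5e-07). MKI67 averaged 54.2 ± 6.67 CPM in treated and 32.4 ± 3.26 CPM in untreated aggregates (log2 0.74, SE 0.11, edgeR adjusted p = 1.19e-05). The fork protection factor TIPIN fell (log2 −0.89), and in all 10 of the 40 other replication genes fell and 3 rose (17.9% and 18.8% of all genes tested). Of the 30 E2F and RB regulators 10 rose and 5 fell, with CCND3 higher (log2 0.62) and MYC lower (log2 −0.46).

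Primed and treated aggregates, which had both doses, were lower than untreated aggregates in 19 of 48 genes and higher in 2 (17.9% and 17.6% of all genes tested). The median log2 fold change was −0.16. The 2 groups lie in different library sets and differ by 24 h of culture, so the doses cannot be told apart from these. MCM10 had 2.02, 1.55 and 1.62 CPM in primed and treated and 2.94, 3.68 and 4.28 CPM in untreated aggregates (log2 −1.07, SE 0.20, edgeR adjusted p = 6.48e-05). RRM2 fell by 1.02 (SE 0.11, edgeR adjusted p = 3.78e-08) and CDC6 by 0.93 (SE 0.07, edgeR adjusted p = 1.24e-11). The libraries of these 3 genes did not overlap between the groups. PCNA (log2 −0.22, edgeR adjusted p = 0.0147) failed without untreated replicate 3 (edgeR adjusted p = 0.23), and MCM3 fell by 0.24 (edgeR adjusted p = 0.00561). POLA1, the catalytic subunit of polymerase alpha (log2 0.21, edgeR adjusted p = 0.0324), and RRM1 (log2 0.16, edgeR adjusted p = 0.0354) were higher. Each of these failed without any of 5 single libraries, POLA1 without any of the untreated or without primed and treated replicate 2 or 3, and RRM1 without untreated replicate 1 or 2 or any of the primed and treated (edgeR adjusted p up to 0.197). With 1 library left out, 0 or 1 of the 48 was higher. Of the 40 other replication genes 16 fell and 3 rose, and of the 30 regulators 8 fell and 7 rose. The checkpoint adaptor CLSPN averaged 2.18 ± 0.47 CPM in primed and treated and 4.88 ± 0.625 CPM in untreated aggregates (log2 −1.14), DSCC1 fell by 0.53, and CCND3 (log2 0.64) and RBL2 (log2 0.52) rose. MKI67 did not pass (log2 −0.07, edgeR adjusted p = 0.648).

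Set against primed aggregates, the primed and treated ones differed in few genes, 6 of 48 lower and 2 higher (14.8% and 14.9% of all genes tested), with a median log2 fold change of −0.01. These groups lie in different library sets and differ by 24 h of culture. RRM2 had 9.78, 12.7 and 13.7 CPM in primed and treated and 17.1, 20.6 and 21.1 CPM in primed aggregates (log2 −0.69, SE 0.11, edgeR adjusted p = 2.63e-05). MCM10 fell by 0.80 (SE 0.20, edgeR adjusted p = 0.0028) and CDC6 by 0.31 (SE 0.07, edgeR adjusted p = 0.00145). CDC6 was the 1 gene of the 48 to pass in all 5 comparisons between aggregates, as did 0.695% of all genes tested. Its call in treated against untreated aggregates ended without untreated replicate 3 (edgeR adjusted p = 0.0568). CHAF1A, the large CAF-1 subunit, fell by 0.36 (edgeR adjusted p = 0.0224), but not without primed replicate 3 or primed and treated replicate 2 or 3 (edgeR adjusted p up to 0.132). DUT rose (73.1, 75.4 and 71.6 CPM in primed and treated, 54.6, 46 and 63.5 CPM in primed aggregates; log2 0.42, SE 0.11, edgeR adjusted p = 0.00932). POLA1 (log2 0.23, edgeR adjusted p = 0.0211) failed without primed replicate 2 or 3 or primed and treated replicate 2 or 3 (edgeR adjusted p up to 0.139). PCNA (log2 0.10) and MCM3 (log2 0.15) did not pass. Without primed replicate 1 the count of lower genes was 12 in place of 6. With library totals as the only scaling 5 genes were higher in place of 2, and 60.8% of all calls were increases, against 50.1% with TMM. Of the other lists, 5 of 40 rose and 4 fell, and 3 of 30 rose and 5 fell. SAMHD1, which breaks down deoxynucleotides (log2 0.59), the histone mRNA binding protein SLBP (log2 0.43) and the E2F partner TFDP1 (log2 0.41) rose, and the inhibitor CDKN1B fell by 0.30. MKI67 was also lower (log2 −0.35, edgeR adjusted p = 0.0179).

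Between primed cultures, aggregates stood far below monolayers, with 43 of 48 genes lower and 3 higher (34.2% and 34% of all genes tested) and a median log2 fold change of −1.43. These groups too lie in different library sets. Mitochondrial rRNA took 2.62 to 2.77% of counts in primed aggregates and 0.793 to 0.812% in primed monolayers, and its part was not tested. CDC45 had 2.96, 3.86 and 2.96 CPM in primed aggregates, against 36.8, 35.7 and 34.6 CPM in primed monolayers, the lowest fold change of the set (log2 −3.45, SE 0.14, edgeR adjusted p = 2.26e-21). ORC1 (log2 −3.34, SE 0.16) and RRM2 (log2 −3.34, SE 0.10) were about as low. CDC6 had 60.1, 68.2 and 66.8 CPM in primed aggregates, against 493, 486 and 496 CPM in primed monolayers (log2 −2.92, SE 0.07, edgeR adjusted p = 2.05e-25). PCNA averaged 36.3 ± 1.48 CPM in primed aggregates and 145 ± 6.76 CPM in primed monolayers (log2 −2, SE 0.07, edgeR adjusted p = 3.69e-23). MCM3 fell by 1.51 (SE 0.07, edgeR adjusted p = 8.66e-20). RFC1 had 61.3, 59.5 and 59.7 CPM in primed aggregates, against 38, 37.7 and 41.9 CPM in primed monolayers, and rose (log2 0.62, SE 0.06, edgeR adjusted p = 7.16e-11). ORC3 (log2 0.26, edgeR adjusted p = 0.0324) and ORC5 (log2 0.16, edgeR adjusted p = 0.0393) were also higher. ORC3 failed without primed aggregate replicate 3 or primed monolayer replicate 2 (edgeR adjusted p up to 0.237) and ORC5 without primed aggregate replicate 1 or primed monolayer replicate 1 or 2 (edgeR adjusted p up to 0.172), and without primed monolayer replicate 2 the count of higher genes was 1. Of the 40 other replication genes 32 fell and 5 rose, with CLSPN (log2 −3.54) and RECQL4 (log2 −2.62) at the smallest p, and of the 30 regulators 22 fell and 5 rose, led by E2F1 (5.88 ± 1.01 CPM in primed aggregates and 58.6 ± 3.4 CPM in primed monolayers, log2 −3.3) and CCNA2 (log2 −2.39). MKI67 fell by 2.94.

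The response to priming was also compared between culture forms. Subtracting the response of monolayers from that of aggregates left 36 of 48 genes lower and 3 higher (29.4% and 27.6% of all genes tested). The monolayer response crosses library sets and the aggregate response does not. Both aggregate groups had 96 h of culture, while no culture time is given for the untreated monolayers. Culture form, library set and culture time cannot be told apart in these differences. MCM3 had a difference of −2.07 (SE 0.10, edgeR adjusted p = 3.65e-18), from a rise in primed monolayers and a fall in primed aggregates. TYMS (−2.02, SE 0.20, edgeR adjusted p = 2.41e-10) and GINS2 (−1.82, SE 0.28, edgeR adjusted p = 1.19e-06) came next. RFC1 (0.56, SE 0.09, edgeR adjusted p = 8.7e-07), PRIM2 (0.56, SE 0.14, edgeR adjusted p = 0.000924) and ORC5 (0.51, SE 0.09, edgeR adjusted p = 2e-05) were the 3 with a higher response in aggregates. All 3 fell in primed monolayers. PRIM2 did not pass without the MYH7 libraries (0.39, edgeR adjusted p = 0.14). The 40 other replication genes had 26 that were lower and 5 higher, and of the 30 regulators 20 lower and 5 higher, with SSRP1 (−1.30), NME1 (−1.60), MYC (−1.59) and TFDP1 (−1.82) at the smallest p. MKI67 had a difference of −0.37 (edgeR adjusted p = 0.0301), nearer 0 than that of 35 of the 36.

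The late dose in aggregates was also set against the acute dose in monolayers. The doses differ (50 and 20 µg/ml), as do library set and culture time, so the 5 higher and 2 lower differences of 48 (11.3% and 12.2% of all genes tested) compare protocols. ORC1 (0.77, SE 0.21, edgeR adjusted p = 0.00738), GINS4 (0.69, SE 0.20, edgeR adjusted p = 0.0112) and ORC6 (0.53, SE 0.15, edgeR adjusted p = 0.00844) fell in monolayers and did not pass in aggregates. RPA2 (−0.32, SE 0.12, edgeR adjusted p = 0.0412) and POLD2 (−0.30, SE 0.10, edgeR adjusted p = 0.0324) fell in aggregates and did not pass in monolayers. Without the MYH7 libraries, which leaves 1 library in 3 of the 4 groups, 0 genes passed in either direction. The differences were then 0.72 for ORC1, 0.69 for GINS4 and 0.74 for ORC6, and −0.29 for RPA2, while that of POLD2 shrank to −0.10. RPA2 also failed without any of 10 single libraries (edgeR adjusted p up to 0.123) and POLD2 without any of 7 (edgeR adjusted p up to 0.12), from all groups of the difference,, so that 0 to 2 genes were lower. With library totals as the only scaling 61.1% of all calls were higher, against 48% with TMM. Of the 40 other replication genes 7 were higher and 5 lower, and of the 30 regulators 10 were higher and 4 lower, among them TOP2A (1.1), SAMHD1 (0.71), CCND3 (0.66) and MYC (−0.62). MKI67 had a difference of 0.96 (SE 0.14, edgeR adjusted p = 3.03e-05).

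The helicase subunits act in equal copy, so their transcripts were compared per kb of exon. MCM7 was the highest and MCM2 the lowest in each group. Their ratio was 4.98 in primed and treated, 4.92 in treated, 5.64 in primed and 5.3 in untreated aggregates, and 3.76 in primed, 5.5 in acutely exposed and 5.19 in untreated monolayers. MCM2, MCM3, MCM5 and MCM6 lay close together in monolayers, where the highest was 1.52 times the lowest in primed, 1.21 times in acutely exposed and 1.3 times in untreated ones. In aggregates that ratio was wider, 2.32 in primed and treated, 2.08 in treated, 2.16 in primed and 2.53 in untreated ones. MCM3 was the highest of the 4 in every aggregate group and also in primed monolayers (29.5 CPM per kb, against 21.5 for MCM5). MCM4 and MCM7, which are left out of this ratio, lay above these 4 in every group. MCM3 averaged 13.6 CPM per kb in untreated aggregates, against 9.29 CPM per kb in untreated monolayers, while MCM5 averaged 5.73 CPM per kb in untreated aggregates, against 8.35 CPM per kb in untreated monolayers. Exon length is the union over GENCODE 29 transcripts, so a subunit whose long isoforms are not used reads low on this scale.

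**Figure D5:**
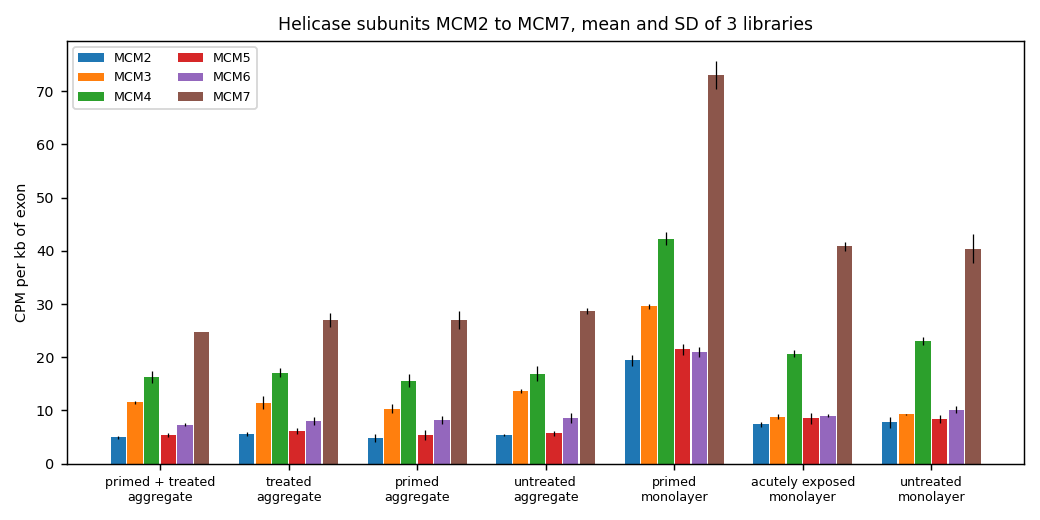
Bars give the mean level of the 6 helicase subunits in CPM per kb of exon, with SD (n = 3), in the 7 groups. MCM3 (orange) stands above MCM2, MCM5 and MCM6 in every aggregate group and in primed monolayers, while in untreated and acutely exposed monolayers the 4 are nearly level.

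Counting limits touch some genes. More than 10% of exon bases are shared with another annotated gene for 9 of the 48 (MCM2, GINS3, GINS4, POLA2, PRIM1, POLD1, RRM2, TYMS and DUT), and TYMS shares 64.6% with ENOSF1 and TYMSOS on the other strand. Whether counting used strand is not given in the sources used here, so reads of such pairs may not be told apart. Pseudogene copies are annotated for 10 genes, including 8 for DUT and 3 each for PCNA, RPA2 and RRM2, and reads may be split with them.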

How the data were processed

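Total RNA of AU565 cells was extracted with TRIzol and made into TruSeq libraries, per the labels' protocols. The authors deposited whole-number counts per gene for 21 libraries. The submitters' processing notes name featureCounts, hg38 and limma, and versions and strand setting are not given in the sources used here. Column names were matched to sample titles. Those of primed aggregates carry a word that the titles lack and were matched as the 1 group left.

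The 48 genes, the 2 further gene lists and the tests were chosen with earlier results of these data known. Of 16553 genes, 15969 passed filterByExpr (584 removed, 0.0116% of counts; 174 genes had no symbol). All 7 groups entered 1 edgeR 4.0.16 quasi-likelihood model (R 4.3.3) with TMM scaling, robust fitting and 14 residual degrees of freedom, without a replicate block. Tests were two-sided, and p-values were Benjamini-Hochberg adjusted over all 15969 genes with a threshold of 0.05 in each of 9 pairwise comparisons and 3 differences between responses. CPM are TMM-scaled. The standard error is the absolute log2 fold change divided by the square root of F. Replicate pairs differed by a chi-square of 2.4 to 10.7 per degree of freedom over 21 pairs, beyond sampling noise. Totals of 15005070 to 26921113 counts set the precision, together with a biological coefficient of variation of 5.98%. On simulated data for primed against untreated monolayers, with 15281 genes tested, 4.4% of calls were false. The model recovered 70% of 100 genes with a 1.5-fold change and 82.8% of 99 with a 2-fold change. The simulation changed far fewer genes than passed in the data and held no library sets. Its share of false calls therefore does not measure that of the data.

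Named in each comparison were up to 3 called genes with the largest rise and 3 with the largest fall, up to 4 called against the main direction, MCM3, CDC6, PCNA, RRM2, MKI67 and the 2 called genes of each further list with the smallest p. Other genes named complete a role or a count and were picked with their values known. Promoters and positions come from RefSeq (GRCh38.p14), and exon lengths from GENCODE 29. Alternatives were DESeq2 1.42.0, limma 3.58.1 voom, other scalings, no filter, only the groups compared, a replicate block, and leaving out libraries.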

Additional observations from a re-analysis of the deposited data

Results flagged for a closer look

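The values below passed a test of the difference between 2 responses, given as log2 differences from edgeR's quasi-likelihood test, each adjusted over all genes tested. The response to priming with the late dose, minus that without it, was 0.40 for MCM3 and 0.36 for RFC4, and −0.92 for MCM10 and −0.72 for RRM2. The response to priming in aggregates, minus that in monolayers, was 0.51 for ORC5, 0.56 for PRIM2 and 0.56 for RFC1, and −1.82 for GINS2, −2.07 for MCM3 and −2.02 for TYMS. The response to the late dose in aggregates, minus that to the acute dose in monolayers, was 0.69 for GINS4, 0.77 for ORC1 and 0.53 for ORC6, and −0.30 for POLD2 and −0.32 for RPA2. In the first kind of difference, the pair with the late dose lies in 1 library set and the pair without it in the other. Late dose, library set and 24 h of culture cannot be told apart there. The last 2 kinds also cross the library sets and use untreated monolayers, whose culture time is not given. Culture form, library set and culture time cannot be told apart in them.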

How the results depend on the processing

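None of 78 named values of the 48 genes reversed under any alternative. DESeq2, relative log expression factors and the replicate block moved no count of members by over 1.5 times. In no comparison were all 3 correlations between the deviations of same-numbered replicates over 0.1, and the replicate block ended none of the 78 calls. Between untreated aggregates and untreated monolayers the correlations were 0.08, 0.16 and 0.20. MYH7 also passed 1 CPM in replicates 1 and 2 of both these groups. Missing the limit of 0.1 therefore does not show that replicates were independent. Calls ended for 1 of the 78 with DESeq2, 2 with voom, 2 with upper quartile factors, 4 with library totals alone, 6 with only the groups compared, 17 without the MYH7 libraries, and 63 of 558 with 1 library left out. The median of all genes tested lay between −0.07 and 0.10 (log2) over the scalings. In primed against untreated aggregates, 1 gene was higher in place of 2 with upper quartile factors, library totals alone or only the groups compared, and 0 without the MYH7 libraries. In primed and treated against untreated aggregates, 1 was higher in place of 2 with upper quartile factors and 0 without the MYH7 libraries. In primed and treated against treated aggregates, 1 was higher in place of 0 without the filter or with only the groups compared. In primed and treated against primed aggregates, 5 were higher in place of 2 with library totals alone. In acutely exposed against untreated monolayers the count of lower genes also shrank without the MYH7 libraries, which leaves 1 library a group there. For the difference of priming between treated and untreated aggregates, 1 was lower in place of 2 with voom or only the groups compared, and 4 were higher in place of 2 without the MYH7 libraries. For the late minus the acute dose, 0 were lower in place of 2 with library totals alone, 1 with only the groups compared and 0 without the MYH7 libraries, where also 0 were higher in place of 5. The cause of these shifts was not tested. With 1 library left out, counts were 0 to 1 higher in acutely exposed against untreated monolayers, 1 to 2 higher and 7 to 14 lower in primed against untreated aggregates, 0 to 1 higher and 4 to 8 lower in treated against untreated, 0 to 1 higher in primed and treated against untreated, 0 to 1 higher and 7 to 10 lower in primed and treated against treated, 1 to 2 higher and 4 to 12 lower in primed and treated against primed, and 1 to 3 higher in primed aggregates against primed monolayers. They were 1 to 3 higher and 1 to 4 lower for the difference of priming by late dose, and 4 to 8 higher and 0 to 2 lower for the late minus the acute dose.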
